A study of Homo sapiens with 18 samples.

Results

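The genes of glycolysis described here are 10 genes chosen by name: SLC2A1, HK2, PFKL, PFKP, ALDOA, GAPDH, PGK1, ENO1, PKM and LDHA. They are 10 of the 26485 gene symbols counted in SW620 cells, a human colon cancer line, and all 10 were among the 12832 genes expressed highly enough to be tested. The question put to the data was whether Lonp1 silencing or heat moves them together. Lonp1 is a protease of the mitochondrial matrix. The cells had been transfected with a scramble siRNA or with siRNA against Lonp1 (siLonp1), and each arm was split over 3 conditions. Ctrl cells stayed at 37 °C, HS cells spent 1 h at 42 °C, and HS+REC cells had the same hour at 42 °C and then 1 h of recovery at 37 °C. There were 3 libraries per group, 18 in all. All groups, the scramble ones included, had therefore gone through an siRNA transfection, and no untransfected cells were analysed here. All libraries come from a single cell line, and the study's methods name 2 siRNAs against Lonp1 without saying which was used for RNAseq.

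Glycolysis splits glucose into pyruvate in the cytosol and yields ATP without oxygen. Glucose enters through transporters such as SLC2A1 (GLUT1), hexokinases trap it as glucose 6-phosphate, phosphofructokinases commit it to the pathway, and lactate dehydrogenase converts the final pyruvate to lactate. Tumour cells, those of colon cancers included, are known for high glycolysis with oxygen present. Many of these genes are textbook targets of the hypoxia-inducible factor HIF-1 and of MYC, whereas the heat shock response is driven by HSF1.

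The stretch upstream of each start site is shown for 4 of the genes. These are SLC2A1, HK2 and PGK1, whose levels moved most, and LDHA, which holds the most matches of the letters ACGTG and CACGTG. Sequences are those of RefSeq (GRCh38.p14), 250 bases ending just before the start site, read 5′ to 3′ on the gene's strand. Capitals mark ACGTG or GCGTG (core letters of the element bound by HIF-1), CACGTG (the E-box, bound by MYC and by the glucose-sensing factors MLXIP and MLXIPL), or GAANNTTC and TTCNNGAA (paired units of the heat shock element), found on either strand. A CACGTG also counts as ACGTG, once on each strand. The windows are chr1:42958869-42959118 (minus strand) for SLC2A1, chr2:74833877-74834126 (plus strand) for HK2, chrX:78103998-78104247 (plus strand) for PGK1 and chr11:18394313-18394562 (plus strand) for LDHA.
SLC2A1: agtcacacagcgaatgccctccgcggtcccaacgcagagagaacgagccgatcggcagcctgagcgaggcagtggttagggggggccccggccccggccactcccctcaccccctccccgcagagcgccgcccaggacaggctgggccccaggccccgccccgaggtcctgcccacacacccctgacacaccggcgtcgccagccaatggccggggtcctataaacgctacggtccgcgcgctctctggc
HK2: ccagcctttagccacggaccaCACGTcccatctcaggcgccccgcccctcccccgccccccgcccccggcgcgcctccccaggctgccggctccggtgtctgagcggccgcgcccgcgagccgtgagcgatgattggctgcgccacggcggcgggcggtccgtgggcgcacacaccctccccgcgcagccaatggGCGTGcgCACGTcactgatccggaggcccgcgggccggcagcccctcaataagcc
PGK1: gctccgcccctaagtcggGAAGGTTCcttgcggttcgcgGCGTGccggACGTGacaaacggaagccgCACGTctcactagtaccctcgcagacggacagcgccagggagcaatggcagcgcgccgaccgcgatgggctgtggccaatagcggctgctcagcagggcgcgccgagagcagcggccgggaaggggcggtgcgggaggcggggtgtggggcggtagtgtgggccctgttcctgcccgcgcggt
LDHA: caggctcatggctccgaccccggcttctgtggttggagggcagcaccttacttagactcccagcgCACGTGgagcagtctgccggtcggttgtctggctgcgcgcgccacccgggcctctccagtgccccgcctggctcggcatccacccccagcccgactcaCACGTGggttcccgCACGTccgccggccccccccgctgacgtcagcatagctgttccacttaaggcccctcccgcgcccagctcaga

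None of the searched letters was found in the SLC2A1 window. HK2 held ACGTG 2 times and GCGTG 1 time, and PGK1 held ACGTG 2 times, GCGTG 1 time and GAANNTTC 1 time. LDHA held 5 matches of ACGTG, of which 4 lie in its 2 copies of CACGTG. All 10 genes had a window in the RefSeq table, although the window of GAPDH lies 747 bases and that of PFKP 422 bases from the start of the gene's reference transcript. Both lie within the gene's annotated span, as some of the other windows do. The GAPDH window is among those counted here with ACGTG and CACGTG, whereas the PFKP window held none of the letters. Among the 10 windows, 5 held ACGTG, 4 held GCGTG and 7 held at least 1 of these. Of all 35116 RefSeq promoter windows of the same length, 18.5% held ACGTG, 32.2% held GCGTG and 43.2% held at least 1 of them. CACGTG was in 2 of the 10 windows and in 6.34% of all windows, GAANNTTC in 1 of 10 and in 5.78% of all, and TTCNNGAA in 0 of 10 and in 6.62% of all. A match is a description of the letters and not a site.

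Library totals ranged from 30815860 counts (HS scramble replicate 3) to 47279297, and the lowest count of any of the 10 genes in any library was 3914 (PFKL). Levels are given as CPM (counts relative to the library's total, adjusted with TMM factors), and values after ± are SDs over 3 libraries. LONP1, the silenced gene, was at 197 to 233 CPM in the scramble libraries and in the siLonp1 libraries it averaged 20.4 ± 1.75 CPM in Ctrl, 11.7 ± 0.15 CPM in HS and 27.2 ± 1.6 CPM in HS+REC. The depth of silencing thus differed between the conditions (interaction of siLonp1 with HS -0.76, adjusted p 0.000468, and with HS+REC 0.43, adjusted p 0.0321), and its part in the differences between conditions was not tested. HSPA1A, a heat shock gene with the near-identical copy HSPA1B, rose with HS in scramble cells, from a mean of 14.3 CPM to one of 1976 CPM. Of 10 markers of colon epithelium, 6 were above 1 CPM in every library, among them EPCAM and KRT8, whereas CDX1 was at 0 counts (marker levels are relative to the library's total alone, without TMM factors). The summed markers of leukocytes (at most 1.91 CPM) and of endothelium (at most 1.52 CPM) were near 0, and those of fibroblasts summed to 9.49 to 35.3 CPM, mostly COL1A1. In bulk libraries, fewer cells that express a gene cannot be told apart from less RNA per cell.

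The 10 genes together took 1.67% ± 0.028 of all counts in Ctrl scramble, 1.65% ± 0.019 in Ctrl siLonp1, 1.62% ± 0.076 in HS scramble, 1.64% ± 0.027 in HS siLonp1, 1.60% ± 0.068 in HS+REC scramble and 1.52% ± 0.094 in HS+REC siLonp1 (n = 3 each). Per kilobase of the reference transcript in the GENCODE annotation of hg38, the levels in Ctrl scramble were 3872 CPM per kb for GAPDH, 1741 for ENO1, 1240 for PKM, 771 for LDHA, 557 for ALDOA, 229 for SLC2A1, 211 for PGK1, 74.3 for PFKP, 42.8 for PFKL and 30.3 for HK2. GAPDH, ENO1, PKM and LDHA were thus the most abundant of the 10 per length, and HK2 and the phosphofructokinases the least abundant. The transcript lengths used may not be those of the isoforms in these cells, and how reads shared with pseudogenes were counted is not given in the sources used here, which limits the levels of GAPDH, PGK1, LDHA, ENO1, PKM and ALDOA.

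**Figure D1:**
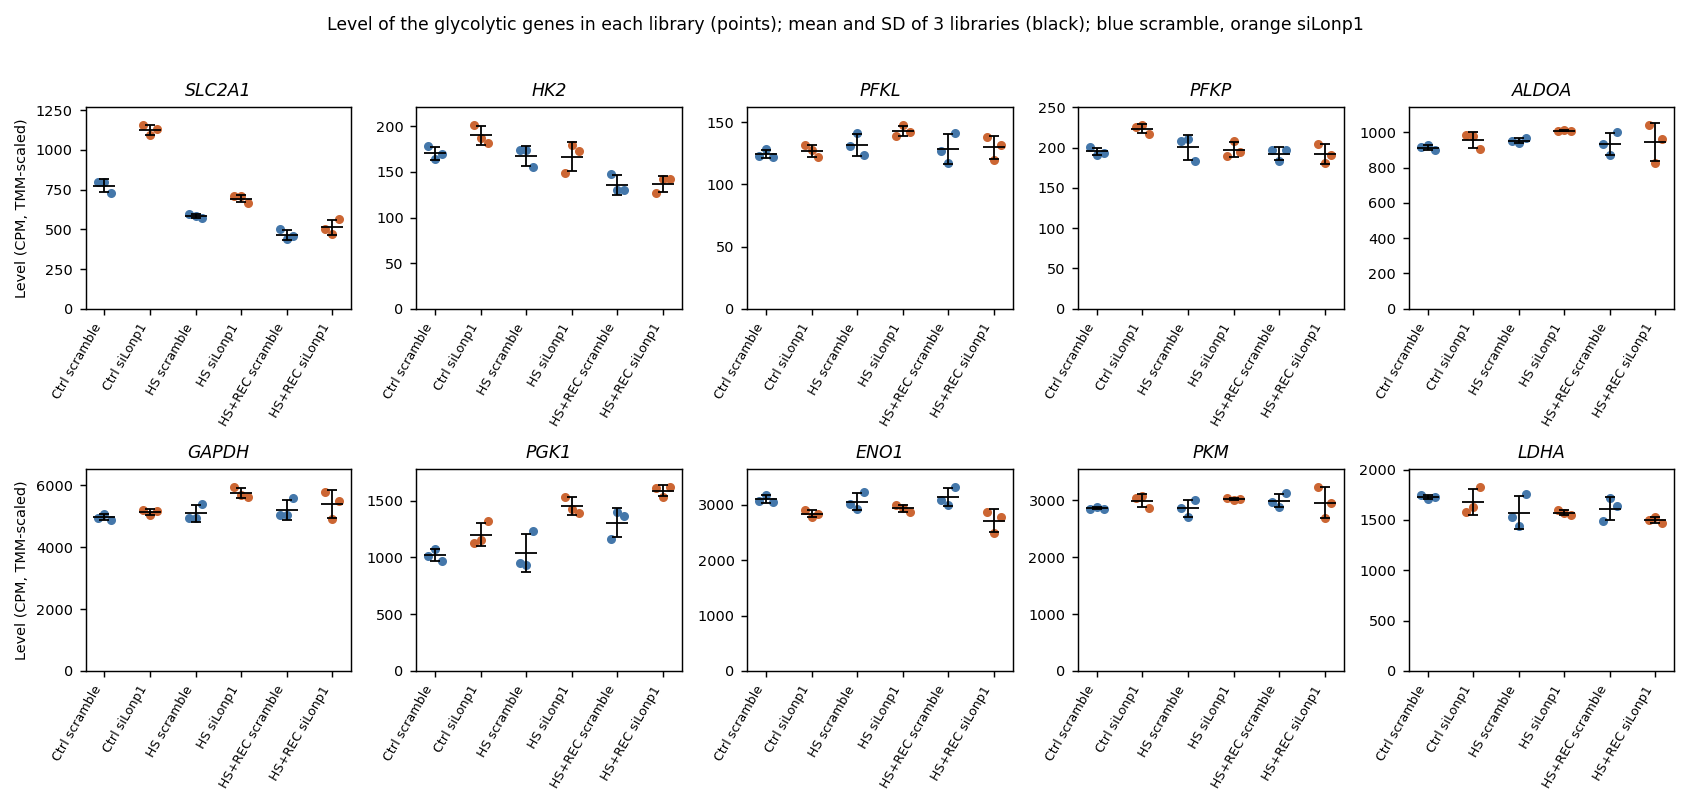
The level of each gene (CPM, TMM-scaled, from 0) is plotted for the 6 groups, each point being 1 library, with the mean and SD of 3 libraries in black, blue for scramble siRNA and orange for siLonp1. SLC2A1 was at 1127 CPM in Ctrl siLonp1 and 466 CPM in HS+REC scramble, PGK1 went from 1017 CPM in Ctrl scramble to 1588 CPM in HS+REC siLonp1, and the group means of PKM lay between 2856 and 3022 CPM.

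The first comparison asked what Lonp1 silencing did at 37 °C. SLC2A1, PFKP and PGK1 rose, and none of the 10 genes fell (adjusted p at most 0.05, edgeR's quasi-likelihood test over all 12832 genes). Of all genes tested, 26.3% rose and 22.9% fell in the same comparison, so that 3 of 10 raised is near the background. The median log2 fold change of the 10 genes was 0.07, beside 0.01 for all genes tested, and with scaling by library size alone the 10 genes' median was -0.01.

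SLC2A1, the transporter for glucose uptake at rest (chr1:42925353-42958893, minus strand, hg38), was at 797, 797 and 727 CPM in Ctrl scramble and at 1156, 1095 and 1130 CPM in Ctrl siLonp1. Each siLonp1 library was above each scramble library, a rise of 45.7% (log2 fold change 0.54, SE 0.06, adjusted p 2.94e-07). PGK1, which makes the first ATP of the pathway (chrX:77910739-78129295, plus strand), was at 1015, 1072 and 965 CPM in Ctrl scramble and at 1130, 1153 and 1318 CPM in Ctrl siLonp1. Its log2 fold change was 0.24 (SE 0.09, adjusted p 0.0279), and the call was lost without Ctrl scramble replicate 1 (adjusted p 0.0642), Ctrl scramble replicate 3 (0.112) or Ctrl siLonp1 replicate 3 (0.163). PFKP, the platelet-type phosphofructokinase (chr10:3066333-3137718, plus strand), was at 200, 191 and 194 CPM in Ctrl scramble and at 225, 228 and 217 CPM in Ctrl siLonp1. The groups did not overlap, and the rise was 14.5% (log2 fold change 0.20, adjusted p 0.0118). With scaling by library size alone the adjusted p was 0.112 for PFKP and 0.116 for PGK1.

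HK2, the inducible hexokinase (chr2:74834127-74893359, plus strand), was at 178, 164 and 169 CPM in Ctrl scramble and at 201, 187 and 182 CPM in Ctrl siLonp1. Every siLonp1 library was higher, but the difference did not pass (log2 fold change 0.16, adjusted p 0.0852), although it passed with only the groups compared (0.0155) and with no filter on low counts (0.0431). ENO1, the main enolase (chr1:8861000-8879190, minus strand), was at 3075, 3180 and 3047 CPM in Ctrl scramble and at 2903, 2775 and 2840 CPM in Ctrl siLonp1, the only one of the 10 with every siLonp1 library below every scramble library. Its log2 fold change was -0.13 (adjusted p 0.0712), and it did pass in DESeq2 (adjusted p 0.0408), with scaling by library size alone (0.00352) and with only the groups compared (0.00497).

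At 42 °C, siLonp1 raised SLC2A1, GAPDH and PGK1 relative to scramble and lowered 0 of the 10, whereas 28.1% of all genes tested rose and 26.7% fell. For the 10 genes the median was 0.08, beside 0.00 for all genes, and -0.01 with scaling by library size alone. PGK1 was at 947, 931 and 1230 CPM in HS scramble and at 1536, 1430 and 1389 CPM in HS siLonp1, so that the third scramble library stood apart from the other two but below all siLonp1 libraries. The rise of PGK1 was 40.1% (log2 fold change 0.49, SE 0.09, adjusted p 7.05e-05). SLC2A1 was at 599, 581 and 571 CPM in HS scramble and at 709, 707 and 665 CPM in HS siLonp1, a rise of 18.9% (adjusted p 0.00205).

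GAPDH, which makes the NADH of the pathway and often serves as a reference gene (chr12:6534512-6538374, plus strand), was at 4957, 4928 and 5402 CPM in HS scramble and at 5936, 5690 and 5614 CPM in HS siLonp1. Its rise of 12.8% (adjusted p 0.0186) was lost without HS scramble replicate 1 (adjusted p 0.0713), HS scramble replicate 2 (0.0731) or HS siLonp1 replicate 1 (0.0706), and with scaling by library size alone (0.251).

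After recovery, siLonp1 raised PGK1 and lowered ENO1 among the 10 genes, whereas 26.8% of all genes tested rose and 27.3% fell. The median of the 10 was 0.01, beside -0.00 for all genes, and -0.06 with scaling by library size alone. PGK1 was at 1162, 1395 and 1363 CPM in HS+REC scramble and at 1613, 1534 and 1617 CPM in HS+REC siLonp1 (log2 fold change 0.28, adjusted p 0.00971), and the call was lost without HS+REC scramble replicate 1 (0.0711). ENO1 was at 3086, 3007 and 3319 CPM in HS+REC scramble and at 2874, 2491 and 2789 CPM in HS+REC siLonp1. It fell by 0.21 on the log2 scale (adjusted p 0.00425), a change that did not pass with only the groups compared (adjusted p 0.0555).

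SLC2A1 was at 500, 439 and 459 CPM in HS+REC scramble and at 501, 472 and 562 CPM in HS+REC siLonp1, and these groups overlapped (log2 fold change 0.14, adjusted p 0.0758). The difference did pass without HS+REC scramble replicate 1 (log2 fold change 0.19, adjusted p 0.0265) or HS+REC siLonp1 replicate 2 (0.19, 0.0194), and was 0.06 without HS+REC siLonp1 replicate 3.

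These siLonp1 comparisons use separate libraries in each condition. PGK1 rose in all 3, SLC2A1 in Ctrl and HS, and the other members called were PFKP in Ctrl, GAPDH in HS and ENO1 in HS+REC. With scaling by library size alone, the share of raised genes among all genes called went from 53.4% to 39.2% in Ctrl, from 51.3% to 35% in HS and from 49.6% to 37.4% in HS+REC. The ratio of ENO1 to GAPDH, which does not depend on the scaling, was 0.623 ± 0.0031 in Ctrl scramble and 0.552 ± 0.0036 in Ctrl siLonp1, 0.601 ± 0.0059 and 0.512 ± 0.0063 in HS, and 0.602 ± 0.011 and 0.504 ± 0.0070 in HS+REC (n = 3 each). In each condition all siLonp1 libraries lay below all scramble libraries in this ratio, which is not divided by transcript length and is read only between groups.

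The next comparisons asked what heat did in each arm. They share the Ctrl libraries of the arm between HS and HS+REC, so the values are set side by side. In scramble cells at 42 °C, SLC2A1 fell by 24.6% (log2 fold change -0.41, SE 0.06, adjusted p 2.07e-05) and was the only one of the 10 to pass, whereas 18.6% of all genes tested rose and 17.3% fell. The 10 genes had a median of 0.01, beside -0.01 for all genes. LDHA, which makes lactate (chr11:18394560-18408425, plus strand), was at 1749, 1706 and 1729 CPM in Ctrl scramble and at 1525, 1442 and 1754 CPM in HS scramble (log2 fold change -0.13, adjusted p 0.124). Without HS scramble replicate 3, the shallowest library, the LDHA difference was -0.20 (adjusted p 0.0209), and without HS scramble replicate 2 it was -0.08.

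In siLonp1 cells at 42 °C, 3 of the 10 genes rose (PFKL, GAPDH and PGK1) and 3 fell (SLC2A1, HK2 and PFKP), whereas 20.2% of all genes tested rose and 22.1% fell. The median of the 10 was 0.03, beside 0.00 for all genes, and -0.02 with scaling by library size alone. SLC2A1 fell by 38.4%, from the 1095 to 1156 CPM of Ctrl siLonp1 to the 665 to 709 CPM of HS siLonp1 (log2 fold change -0.70, SE 0.06, adjusted p 4.05e-09). With other scalings, filters, fits and tools, at an FDR of 0.01 and without each library in turn, this call held with log2 fold changes between -0.75 and -0.67, and it does not reach the second limit of a fold above 2.

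The other 5 changes were small, and their calls were lost in several of the fits with 1 library fewer, whereas their direction held in each. PGK1 rose by 0.27 (adjusted p 0.0145, 0.23 to 0.35 without each library in turn) and lost its call without Ctrl siLonp1 replicate 1 (0.0755), Ctrl siLonp1 replicate 2 (0.0604) or HS siLonp1 replicate 1 (0.0634). PFKP fell by 0.18 (adjusted p 0.0233, log2 fold changes -0.22 to -0.15 without each library in turn) and lost its call without Ctrl siLonp1 replicate 1 (0.0617), Ctrl siLonp1 replicate 2 (0.0742), HS siLonp1 replicate 1 (0.0952) or HS siLonp1 replicate 3 (0.0757). HK2 fell by 0.19 (adjusted p 0.0454), from 201, 187 and 182 CPM to 149, 179 and 173 CPM. Without each library in turn its log2 fold change was -0.24 to -0.11. The call was lost without Ctrl siLonp1 replicate 1 (0.189), Ctrl siLonp1 replicate 2 (0.072), HS siLonp1 replicate 1 (0.266) or HS siLonp1 replicate 3 (0.0564). PFKL, the liver-type phosphofructokinase (chr21:44300051-44327376, plus strand), rose by 0.17 (adjusted p 0.0457), from 131, 127 and 122 CPM to 139, 148 and 142 CPM. GAPDH rose by 0.16 (adjusted p 0.0352), from 5216, 5042 and 5161 CPM to 5936, 5690 and 5614 CPM. The calls of PFKL and GAPDH were lost whichever of the 6 Ctrl siLonp1 and HS siLonp1 libraries was left out, except GAPDH without HS siLonp1 replicate 3. Their adjusted p then ran from 0.0519 to 0.154 for PFKL and from 0.0594 to 0.118 for GAPDH, with log2 fold changes of 0.14 to 0.20 for PFKL and 0.14 to 0.18 for GAPDH over the 6 fits.

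After recovery in scramble cells, SLC2A1 and HK2 were below Ctrl and PGK1 above it, whereas 21.8% of all genes tested rose and 20.5% fell. As a median, the 10 genes differed by 0.02, beside -0.00 for all genes, and -0.06 with scaling by library size alone. SLC2A1 fell by 39.8% (log2 fold change -0.73, SE 0.06, adjusted p 1.94e-09) to 500, 439 and 459 CPM. HK2 fell by 20.3% (log2 fold change -0.33, SE 0.07, adjusted p 0.000976) to 148, 130 and 130 CPM, below all 3 Ctrl scramble libraries. PGK1 rose by 28.4% (log2 fold change 0.36, SE 0.09, adjusted p 0.00184), its 3 HS+REC libraries all above the Ctrl ones. With scaling by library size alone, the share of raised genes among all genes called went from 51.5% to 34.9%, and these 3 calls held.

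After recovery in siLonp1 cells, PGK1 was above Ctrl and SLC2A1, HK2, PFKP and LDHA were below it, whereas 24.6% of all genes tested rose and 26.6% fell. The median of the 10 was -0.04, beside -0.00 for all genes, and -0.12 with scaling by library size alone, which also took the share of raised genes among all calls from 48.0% to 35.1%. SLC2A1 fell by 54.6% (log2 fold change -1.14, SE 0.06, adjusted p 6.86e-13), the only change past 2-fold of any of the 10 genes in the comparisons of 2 groups. HK2 fell by 27.9% (log2 fold change -0.47, SE 0.07, adjusted p 1.11e-05), to 126, 142 and 142 CPM. PFKP fell by 14.0% (adjusted p 0.00519), to 205, 180.5 and 191 CPM. PGK1 rose by 32.2% (log2 fold change 0.40, SE 0.09, adjusted p 0.000497). LDHA fell by 10.6% (adjusted p 0.0484), from 1578, 1628 and 1824 CPM to 1498, 1527 and 1473 CPM. The LDHA call was lost without Ctrl siLonp1 replicate 2 (0.0561), Ctrl siLonp1 replicate 3 (log2 fold change -0.10 in place of -0.16, adjusted p 0.279), HS+REC siLonp1 replicate 1 (0.082), replicate 2 (0.0639) or replicate 3 (0.118). It was also lost with RLE factors (0.0549), with CPM above 1 in all 18 libraries (0.0787) and with only the groups compared (0.105).

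**Figure D2:**
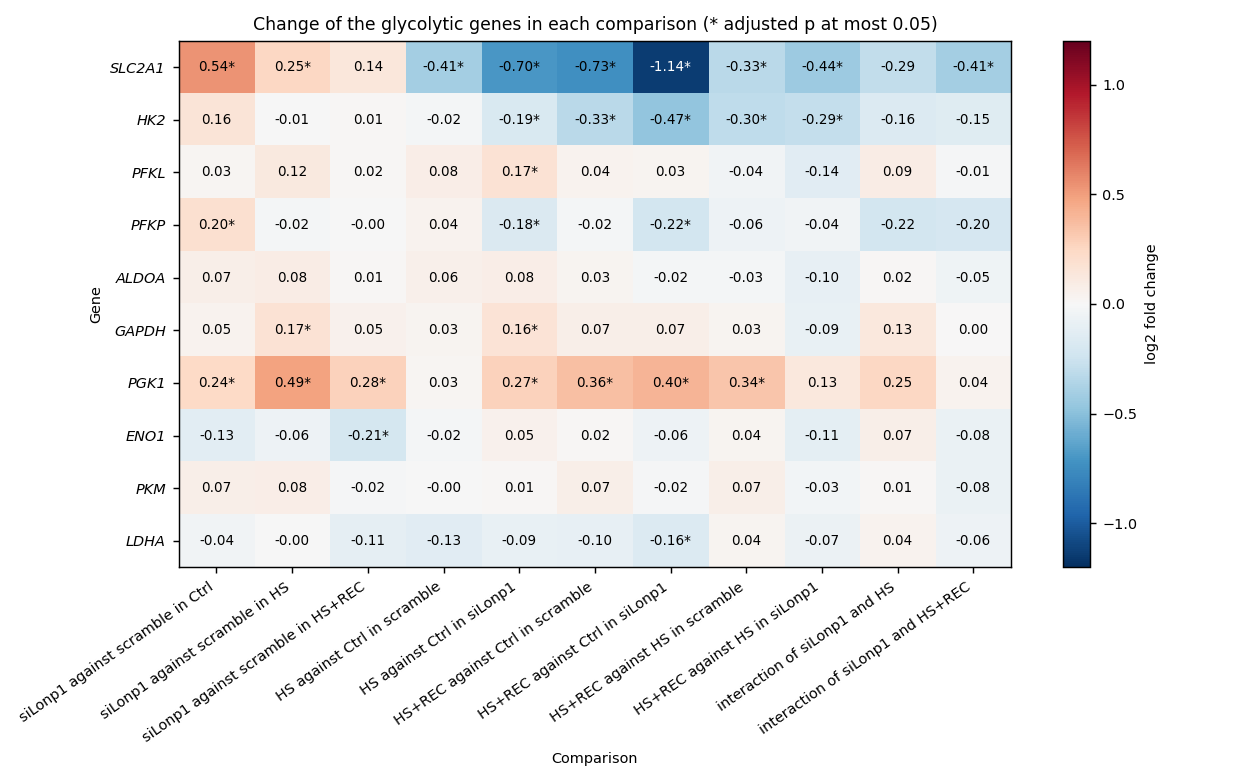
Each cell gives the log2 fold change of 1 gene (rows) in 1 comparison (columns), coloured from blue (lower) to red (higher), with an asterisk at an adjusted p of at most 0.05. For HS+REC against Ctrl, SLC2A1 is at -0.73 in scramble and -1.14 in siLonp1 and PGK1 at 0.36 and 0.40, and the rows of ALDOA and PKM carry no asterisk.

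Between HS and HS+REC, that is over the hour back at 37 °C, SLC2A1 and HK2 fell in both arms. In scramble cells SLC2A1 fell by 20.2% (adjusted p 0.000372) and HK2 by 18.9% (adjusted p 0.00329), whereas PGK1 rose by 26.2% (adjusted p 0.0056), with 14.2% of all genes tested raised and 12.7% lowered. The PGK1 groups overlapped, since HS scramble replicate 3 at 1230 CPM lay above HS+REC scramble replicate 1 at 1162 CPM, and the call was lost without HS scramble replicate 2 (adjusted p 0.0507). For the 10 genes the median was 0.00, beside 0.01 for all genes, and -0.05 with scaling by library size alone, which took the share of raised genes among all calls from 52.7% to 36.3%.

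In siLonp1 cells, SLC2A1 fell by 26.2% (adjusted p 7.69e-06) and HK2 by 17.9% (adjusted p 0.00436) between HS and HS+REC, and none of the 10 rose, whereas 16.3% of all genes tested rose and 15.6% fell. PGK1 differed by 0.13 (adjusted p 0.288). The median of the 10 was -0.09, beside -0.01 for all genes. Without HS+REC siLonp1 replicate 1, ALDOA (-0.19, adjusted p 0.0412) and ENO1 (-0.17, adjusted p 0.0461) also passed.

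The difference in the heat effect between the arms was tested as an interaction. SLC2A1 fell more in siLonp1 than in scramble cells between Ctrl and HS+REC, with a difference of -0.41 on the log2 scale (SE 0.09, adjusted p 0.0194), the only one of the 10 to pass. Of all genes tested, 0.686% had a positive and 0.896% a negative interaction in this comparison. The SLC2A1 call was lost without Ctrl scramble replicate 3 (adjusted p 0.0765), Ctrl siLonp1 replicate 1 (0.0626), HS+REC scramble replicate 1 (0.0637) or HS+REC siLonp1 replicate 2 (0.0524), with differences of -0.39 to -0.35. The 10 genes had a median of -0.07, beside -0.02 for all genes.

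For HS, 0 of the 10 genes passed, against 0.475% of all genes with a positive and 1.39% with a negative interaction. By edgeR at an unadjusted p of at most 0.05, SLC2A1 and PFKP were lower, and SLC2A1 passed with only the groups compared (-0.30, adjusted p 0.013). The SLC2A1 difference was -0.29 (95% interval -0.48 to -0.11, adjusted p 0.0934). For PGK1 it was 0.25 (95% interval -0.01 to 0.50, adjusted p 0.351), and 0.38 without HS scramble replicate 3 (adjusted p 0.0444). The median of the 10 was 0.03, beside -0.00 for all genes.

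Ordered by mean level, SLC2A1 was highest in Ctrl siLonp1, then in Ctrl scramble, HS siLonp1, HS scramble, HS+REC siLonp1 and HS+REC scramble, and only the last neighbouring pair overlapped. HK2 was at 167 to 190 CPM on average in the 4 groups without recovery and at 136 ± 10.7 and 137 ± 9.1 CPM in HS+REC scramble and HS+REC siLonp1. PGK1 was lowest in Ctrl scramble, then in HS scramble, Ctrl siLonp1, HS+REC scramble, HS siLonp1 and HS+REC siLonp1, and every neighbouring pair in that order overlapped. ENO1 was at 3060 to 3137 CPM on average in the 3 scramble groups and at 2718 to 2942 CPM in the 3 siLonp1 groups.

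ALDOA, the main aldolase (chr16:30064164-30070457, plus strand), and PKM, the pyruvate kinase that ends the pathway (chr15:72199029-72231819, minus strand), passed in none of the 11 comparisons. By group, ALDOA averaged 913 to 1010 CPM and PKM 2856 to 3022 CPM. Among the comparisons of 2 groups, the widest difference of ALDOA was -0.10 (95% interval -0.24 to 0.04, siLonp1 HS+REC against HS) and that of PKM 0.08 (95% interval -0.04 to 0.20, siLonp1 against scramble in HS). LDHA averaged 1499 to 1728 CPM by group.

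Across the 18 libraries the 10 genes did not follow a single course. Of the 45 pairs, 27 had a Pearson r of log2 CPM above 0, 9 above 0.5 and 2 below -0.5, with a median of 0.13. The pairs share their libraries, depth and groups, so these values are descriptions. SLC2A1 went with HK2 (r = 0.84) and PFKP (0.70), ALDOA with PKM (0.83), PFKL (0.81) and GAPDH (0.79), and GAPDH with PGK1 (0.70). The lowest values were those of HK2 with PGK1 (-0.59) and of PFKL with LDHA (-0.54). Against the mean of the other 9 genes, ALDOA had an r of 0.79 and PKM of 0.66, whereas PGK1 was at -0.05 and LDHA at -0.07.

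**Figure D3:**
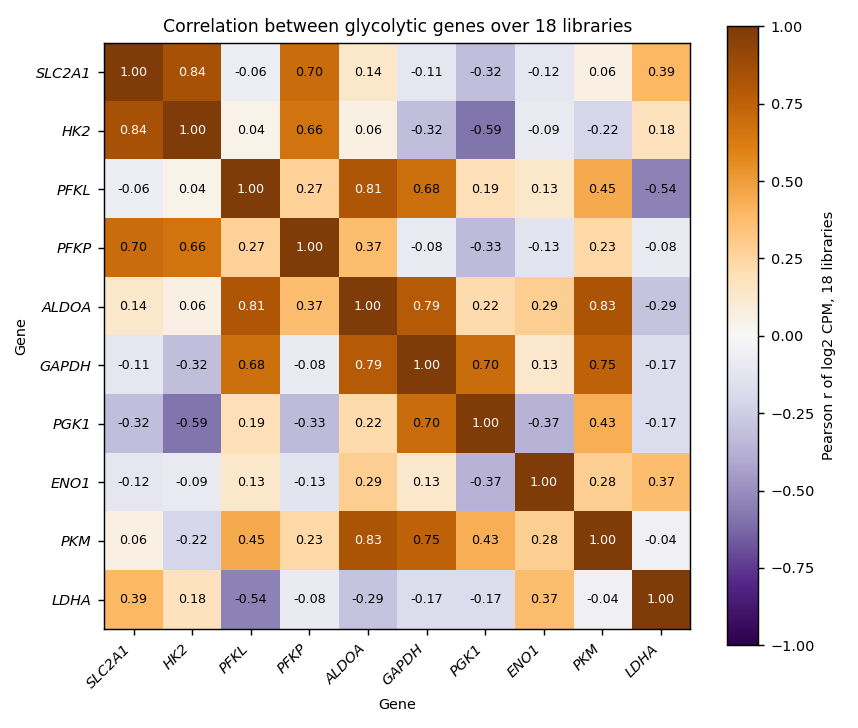
Pearson r of log2 CPM over 18 libraries is given for each pair of the 10 genes, from purple (below 0) to orange (above 0), with genes on both axes. SLC2A1 and HK2 reach 0.84 and ALDOA and PKM 0.83, and HK2 with PGK1 is lowest at -0.59.

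Among all genes tested, those whose course over the 18 libraries was most like the mean of the 10 (each gene standardised first) were KRT19 (r = 0.88), RFXANK (0.88), CARHSP1 (0.87), KRT8 (0.87) and CUTA (0.86). KRT8 and KRT19 are keratins of simple epithelia. The mean of the 10 in SD units was 0.41 in Ctrl siLonp1 and 0.50 in HS siLonp1, against -0.15 in Ctrl scramble and -0.19 in HS scramble, and the HS+REC libraries were spread widely, from -0.65 to 0.38 in scramble and from -1.23 to 0.36 in siLonp1. KRT8 averaged 6238 ± 139.7 CPM in HS siLonp1, its highest group, and 4925 ± 152 CPM in Ctrl scramble, its lowest. Whether such genes have a part in the members' values was not tested.

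The other glycolytic enzymes and isoforms, 12 of 20 listed genes expressed highly enough to test, had risers in most comparisons. HK1, the hexokinase of most tissues, ALDOC, the brain-type aldolase, and ENO2, the neuronal enolase, rose with siLonp1 in each of the 3 conditions and with HS in both arms. HK1 went from 77.3 ± 4.1 CPM in Ctrl scramble to 119 ± 2.2 in Ctrl siLonp1 and 139 ± 7.9 in HS siLonp1. ALDOC was at 9.55 ± 0.45 CPM in Ctrl scramble, 15.02 ± 4.4 in HS scramble and 31.0 ± 1.6 in HS siLonp1, and ENO2 at 38.3 ± 1.4, 48.4 ± 1.3 and 80.2 ± 4.8 CPM in these groups. ENO3, the muscle enolase, also rose with HS in both arms, which makes 4 of 12 raised and 0 lowered in each, beside all-gene shares of 18.6% raised and 17.3% lowered in scramble and of 20.2% and 22.1% in siLonp1. PFKM, the muscle-type phosphofructokinase, and PGAM1, a phosphoglycerate mutase, fell with siLonp1 in all 3 conditions, PFKM from 98.0 ± 3.4 to 75.7 ± 2.8 CPM in Ctrl. With siLonp1, 3 of the 12 rose and 2 fell in Ctrl, 5 and 3 in HS, and 4 and 3 in HS+REC, beside all-gene shares of 26.3% raised and 22.9% lowered, 28.1% and 26.7%, and 26.8% and 27.3%. ENO3, PFKM and PGAM1 are named here with their values known.

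The ratio of HK2 to HK1 was 2.21 ± 0.026 in Ctrl scramble, 1.60 ± 0.057 in Ctrl siLonp1, 1.83 ± 0.066 in HS scramble, 1.196 ± 0.071 in HS siLonp1, 1.54 ± 0.12 in HS+REC scramble and 1.03 ± 0.15 in HS+REC siLonp1 (n = 3 each, not divided by length). It was lower in every siLonp1 library than in every scramble library of the same condition.

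Of the glucose and monocarboxylate transporters other than SLC2A1, 8 of 11 could be tested, and 2 rose and 2 fell with siLonp1 in Ctrl and likewise in HS, near the all-gene shares of 26.3% and 22.9% in Ctrl and of 28.1% and 26.7% in HS. SLC2A3, the high-affinity glucose transporter GLUT3, rose in all 3 conditions, from 322 ± 14 to 564 ± 28 CPM in Ctrl (log2 fold change 0.81, adjusted p 5.87e-10) and from 392 ± 36 to 793 ± 43 CPM in HS+REC. It also rose with HS, by 0.26 in scramble and 0.26 in siLonp1 cells, where SLC2A1 fell by 0.41 and 0.70. SLC2A8 fell with siLonp1 in all 3 conditions, at mean levels of at most 3.82 CPM. The other of the 2 counted as fallen was SLC2A4, the insulin-responsive GLUT4, with 0.659 ± 0.29 CPM in Ctrl siLonp1 against 1.21 ± 0.20 CPM in Ctrl scramble. It was above 1 CPM in scramble libraries only and passed the filter on low levels through them, so its count is no support. The lactate carriers SLC16A1 and SLC16A3, named with their values known, fell with HS in both arms, SLC16A1 from 253 ± 9.1 to 194 ± 4.2 CPM in scramble and SLC16A3 from 312 ± 17 to 238 ± 11 CPM in siLonp1.

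Among 18 of 19 listed regulators of flux and of pyruvate entry, 5 rose and 4 fell with HS in scramble and 4 rose and 3 fell in siLonp1, beside 18.6% raised and 17.3% lowered of all genes in scramble and 20.2% and 22.1% in siLonp1. TXNIP, which restrains glucose uptake, rose from 198 ± 11 to 843 ± 34 CPM in scramble (log2 fold change 2.09, adjusted p 5.24e-17) and from 196 ± 16 to 689 ± 20 CPM in siLonp1. ARRDC4, its arrestin relative, rose by 1.22 and 0.76 in the same comparisons. The interaction of siLonp1 with HS passed for ARRDC4 and that with HS+REC for TXNIP, both negative. Relative to scramble, TXNIP was lower in siLonp1 by 0.29 in HS and 0.47 in HS+REC. PDK4, a kinase that shuts off pyruvate dehydrogenase, is among those counted as raised, with 1.19 ± 0.26 CPM in HS scramble against 0.402 ± 0.061 CPM in Ctrl scramble. It was below 1 CPM in all Ctrl libraries and passed the filter through heated and recovered ones, so its count is no support either. With siLonp1, 8 of the 18 rose and 5 fell in Ctrl, and 8 rose and 6 fell in HS and in HS+REC, beside the same all-gene shares of 26.3% to 28.1% raised and 22.9% to 27.3% lowered. PDK4 is counted among the fallen in each of these 3 comparisons, where for the same reason its count is no support.

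Of the HIF factors and their regulators, 7 of 8 listed genes were tested. HIF1A, the oxygen-regulated subunit of HIF-1, rose with siLonp1 from 159 ± 9.0 to 241 ± 9.4 CPM in Ctrl (log2 fold change 0.60, adjusted p 6.93e-07), by 0.47 in HS and by 0.65 in HS+REC. With HS its change was 0.02 in scramble (adjusted p 0.887) and -0.11 in siLonp1 (adjusted p 0.242). VHL, which marks HIF for breakdown, fell with HS by 0.40 in scramble and 0.34 in siLonp1. EGLN3, a prolyl hydroxylase of HIF, rose with HS by 0.36 in scramble and 0.61 in siLonp1 and fell with siLonp1 by 0.71 in Ctrl.

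HIF targets outside glycolysis had 9 of 11 listed symbols tested, ERO1A and ERO1L among the listed being names of the same gene. They gave 7 raised and 1 lowered with HS in scramble cells and 8 raised and 1 lowered in siLonp1 cells. Their median log2 fold changes were 0.53 and 0.57. Of all genes, 18.6% rose and 17.3% fell in scramble, and 20.2% and 22.1% in siLonp1. The medians were 0.01 and 0.03 for the 10 glycolytic genes and -0.01 and 0.00 for all genes. VEGFA, the angiogenic growth factor, went from 33.5 ± 0.45 to 57.1 ± 3.4 CPM with HS in scramble (log2 fold change 0.77, adjusted p 1.64e-09) and to 93.2 ± 3.5 CPM in HS+REC scramble. DDIT4, an inhibitor of mTORC1, went from 18.8 ± 2.2 to 285 ± 18 CPM with HS in scramble (log2 fold change 3.92), and ANKRD37 from 2.45 ± 0.17 to 5.34 ± 0.40 CPM. ERO1A, an oxidase of the endoplasmic reticulum named with its values known, was the one lowered, by 0.35 in scramble and 0.43 in siLonp1. With siLonp1, 2 of the 9 rose and 2 fell in Ctrl, near the all-gene shares of 26.3% and 22.9%, whereas 5 rose and 0 fell in HS (all genes 28.1% and 26.7%) and 4 rose and 1 fell in HS+REC (26.8% and 27.3%). Many of these genes are also known to respond to other stresses, and the part of HIF was not tested.

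**Figure D4:**
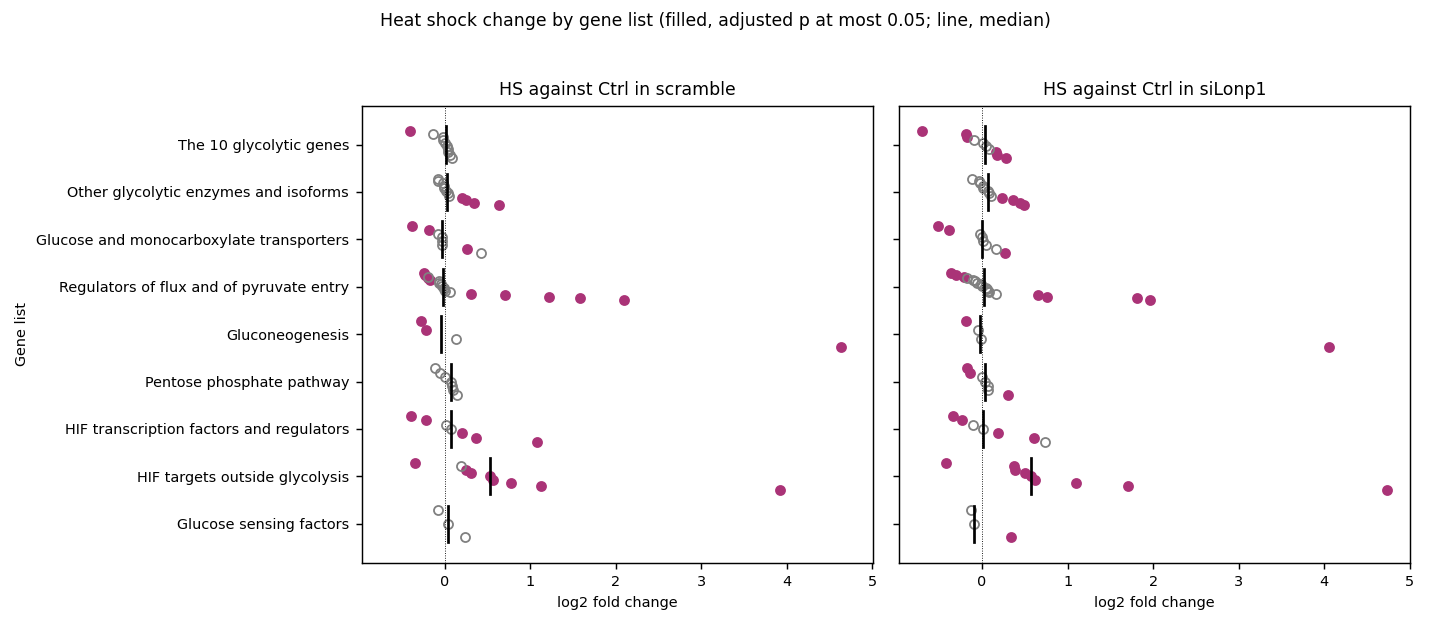
The log2 fold change with HS (x axis) is plotted for each tested gene of 9 gene lists (y axis), scramble cells on the left and siLonp1 cells on the right, filled where the adjusted p was at most 0.05, with a line at each list's median. The 10 glycolytic genes lie around medians of 0.01 and 0.03, and the HIF targets outside glycolysis around 0.53 and 0.57. The rightmost points are PCK1 in scramble and DDIT4 at 4.73 in siLonp1. PCK1 and PDK4 were below 1 CPM in Ctrl and passed the filter on low levels through heated or recovered libraries. Their filled points are therefore no support, and the medians of their lists include them.

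In the routes beside glycolysis, gluconeogenesis had 4 of 8 listed symbols tested, G6PC and G6PC1 among the listed being names of the same gene. Of the 4, 2 fell with HS in scramble (PCK2 and G6PC3) and 1 in siLonp1 (G6PC3), beside all-gene shares of 17.3% and 22.1%. PCK1, the cytosolic PEP carboxykinase, averaged 4.10 ± 0.57 CPM in HS scramble against 0.162 ± 0.013 CPM in Ctrl scramble, and 4.82 ± 0.36 against 0.287 ± 0.16 CPM in siLonp1. It was tested only because the heated groups lifted it past the filter, so its test is no support and its values are not printed. Its points are still filled in the plot of log2 fold changes with HS by gene list. PCK2, its mitochondrial form, rose with siLonp1 by 0.24 in Ctrl and 0.45 in HS, and G6PC3, a glucose 6-phosphatase, fell with siLonp1 by 0.44 in Ctrl. All 7 genes of the pentose phosphate pathway were tested, and with HS 0 passed in either direction in scramble and 1 rose (RPE) and 2 fell (PGD and RPIA, named with their values known) in siLonp1, beside all-gene shares of 20.2% raised and 22.1% lowered there. RPE differed by 0.14 with HS in scramble (adjusted p 0.0587), so the arms are not shown to differ. TKT, the transketolase, fell with siLonp1 from 555 ± 8.3 to 453 ± 27 CPM in Ctrl (log2 fold change -0.29, adjusted p 0.000911) and by 0.43 in HS+REC. RPE, an epimerase of the pathway, rose with HS in siLonp1 by 0.30 (adjusted p 0.000177) and with siLonp1 in HS by 0.14 (0.0426). PGLS, its lactonase, rose with siLonp1 in HS+REC by 0.25 (0.0224). The glucose-sensing factors MLXIP and MLXIPL fell with siLonp1 in all 3 conditions, by 0.53 and 0.57 in Ctrl, and their partner MLX rose by 0.33 in Ctrl.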

How the data were processed

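The deposited values were raw counts per gene, with no normalization, for 26485 gene symbols in 18 libraries of SW620 cells. The authors sequenced stranded mRNA libraries from both ends, mapped them onto hg38 by STAR 2.7.3a and used featureCounts with UCSC genes. The strand setting, the handling of reads shared by several genes and the annotation release are not given in the sources used here. Their methods speak of independent biological replicates, and p-values measure the spread between these libraries. Intervals cover the spread between libraries, and no molecular identifiers are mentioned.

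Tests used edgeR 4.0.16 (R 4.3.3): TMM factors, CPM above 1 in at least 3 libraries, 1 quasi-likelihood model over all 18 libraries with a mean per group, 11 contrasts, and a Benjamini-Hochberg adjusted p of at most 0.05 over all 12832 genes at any fold, with a fold above 2 as a second limit. Log2 CPM used a prior count of 2. The fit was tested on simulated data. Libraries were grouped by the sample labels, and genes by lists written by hand. Alternatives were RLE factors, library size alone, no filter, CPM above 1 in all 18 libraries, DESeq2 1.42.0, the replicate number as a block, only the groups compared, an FDR of 0.01, and each library left out in turn.

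The 10 genes, the pathway lists and the tests were chosen with earlier results of these data known. Genes named are the 10, LONP1, HSPA1A, up to 3 genes per list with the largest change past the limit, and the 5 most like the members' mean. Others are marker genes, HSPA1B (the copy of HSPA1A), or genes named with their values known. Promoter letters were searched in RefSeq windows, and gene positions are those of GENCODE for hg38.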

Additional observations from a re-analysis of the deposited data

Results flagged for a closer look

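LONP1, the silenced gene, was at different levels in the siLonp1 conditions, with an interaction of siLonp1 and HS of -0.76 (adjusted p 0.000468, edgeR's quasi-likelihood test) and of siLonp1 and HS+REC of 0.43 (adjusted p 0.0321). Among the 10 glycolytic genes, 1 interaction of siLonp1 with heat passed its test. The change of SLC2A1 between Ctrl and HS+REC was -1.14 on the log2 scale in siLonp1 cells and -0.73 in scramble cells, and the interaction was -0.41 (SE 0.09, adjusted p 0.0194, edgeR's quasi-likelihood test). The siLonp1 libraries started from 1095 to 1156 CPM and ended at 472 to 562 CPM, whereas the scramble libraries started from 727 to 797 CPM and ended at 439 to 500 CPM. The call was lost when 1 of 4 libraries was left out (Ctrl scramble replicate 3, Ctrl siLonp1 replicate 1, HS+REC scramble replicate 1 or HS+REC siLonp1 replicate 2), with adjusted p of 0.0524 to 0.0765. Single outlying libraries were not tested within groups of 3.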

How the results depend on the processing

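Over the 10 genes and 11 contrasts, 1660 values were recomputed under the alternatives other than the limit of a fold above 2. Of these, 1579 kept their side of the limit, among them 109 uncalled values that changed sign (at most 0.08 in size in the fit as reported), 64 lost and 17 gained a call, and 0 of the called values reversed. Scaling by library size alone left 1 raised and 1 lowered for siLonp1 in Ctrl (median -0.0080), 1 lowered for siLonp1 in HS (median -0.014), 2 lowered for siLonp1 in HS+REC (median -0.059) and 1 raised for HS in siLonp1 (median -0.016), and gave medians of -0.058 for HS+REC against Ctrl in scramble, -0.122 in siLonp1 and -0.054 for HS+REC against HS in scramble. With CPM above 1 in all 18 libraries, 1 was lowered by HS in siLonp1. With only the groups compared, 1 was lowered by siLonp1 in Ctrl, 0 in HS+REC, and 1 had a negative interaction with HS (SLC2A1). DESeq2 lowered 1 by siLonp1 in Ctrl (ENO1). At an FDR of 0.01, 1 was raised by siLonp1 in Ctrl, 0 were raised and 1 lowered by HS in siLonp1, and 0 had an interaction with HS+REC. With a fold above 2 as well, 1 of all these calls was left (SLC2A1, HS+REC in siLonp1) and the other counts were 0.

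Leaving out each library in turn gave 1 to 2 lowered by HS in scramble, 0 to 2 raised and 1 to 3 lowered by HS in siLonp1, 1 to 2 raised by siLonp1 in HS+REC, 0 to 1 raised between HS and HS+REC in scramble, 2 to 4 lowered between them in siLonp1, 0 to 1 with a positive interaction with HS and 0 to 1 with a negative one with HS+REC. The medians then ran from -0.027 to 0.064 for HS+REC in scramble, -0.099 to 0.022 in siLonp1, -0.048 to 0.021 and -0.161 to -0.039 between HS and HS+REC in scramble and siLonp1, -0.114 to -0.020 for the interaction with HS+REC and -0.047 to 0.059 for siLonp1 in HS+REC. The cause was not tested.

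No pairing of the samples by replicate number was evident over all groups. Same-numbered deviations had correlations between -0.38 and 0.46, with 10 of 45 over 0.1, and 0 of 15 pairs of groups had all over 0.1. With 3 libraries per group, this check cannot show that the samples were unpaired. With the replicate number as a block, HK2 (adjusted p 0.0589) and PFKL (0.0608) in HS siLonp1 and LDHA (0.0515) in HS+REC siLonp1 were no longer called, and no other call among the 10 genes changed. The lowest count of the 10 genes in any library was 3914.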
